A study of Xenopus laevis with 4 samples.

Results

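Neural crest transcription factor genes were followed in posterior explants of *Xenopus laevis* embryos after 3 h with or without picrotoxin, a blocker of the chloride channel of GABA-A receptors. The 10 genes were sox8, sox9, sox10, foxd3, snai1, snai2, twist1, tfap2a, tfap2b and ets1. They were chosen by name, with earlier results of these data known. *X. laevis*, an allotetraploid frog, carries most genes as an L and an S copy (homeologs) on separate chromosome sets. The annotation held 19 copies of the 10 genes among 39176 gene models, an L and an S copy of 9 genes and a single snai1 copy. That copy bears the symbol snai1.S although the annotation places it on an L chromosome (9_10L). Embryos at tailbud stage 26 had been cut across behind the otic vesicle, the posterior pieces kept for 3 h, and the ventral yolk removed. The picrotoxin group received 0.5 mM of the drug. The control group is labelled only as control. There were 2 libraries per group, each from the pooled explants of 3 embryos, so that 1 value is the mean of those explants. The p-values set the difference between groups against the spread between pools. In a whole explant, fewer cells of a type and less RNA per cell cannot be told apart.

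Neural crest cells arise at the border of the neural plate, leave the dorsal neural tube and form pigment cells, peripheral neurons and glia, and parts of the skeleton. In the accepted scheme, border factors such as AP-2 proteins come first, followed by crest specifiers (Snail proteins, FoxD3 and the SoxE proteins) that hold the cells in a multipotent state and let them detach. Twist1 and Ets1 act in the cells that migrate. In a posterior explant the crest is that behind the level of the otic vesicle, with trunk and tail, since the cut removes the anterior head. None of the 10 genes is restricted to the crest. AP-2 factors are also made in the epidermis, Ets1 in endothelial and blood precursors, Twist1 in mesenchyme, Snai1 in mesoderm and Sox9 in cartilage precursors.

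The libraries held 18164780 to 20974386 estimated counts, of which ribosomal RNA took 38.0% to 42.0% in 3 libraries and 25.1% in picrotoxin replicate 2. Every crest factor copy was detected in every library, with 81 to 1262 counts, and all 19 passed the filter on low counts. Levels below are given as CPM, the counts scaled to library size after TMM normalization. Transcript lengths were not used here, so levels of different genes were not ranked against each other.

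The crest factor genes did not differ detectably between picrotoxin and control. Of the 19 copies, 0 passed an adjusted p of 0.05 in edgeR's quasi-likelihood test, beside 0.176% of the 26752 genes tested. The number with an unadjusted p under 0.05 was 0 as well in edgeR (7.51% of all genes), and 0 in DESeq2 by either measure. It was 1 with ribosomal RNA left out, with a mean CPM of at least 1 or with chromosome medians removed. Over all genes these settings had 2039 of 26470, 1854 of 23601 and 2052 of 26752. It was 0 under the other alternatives run on all 4 libraries. Of all 26752 genes, 724 were under that limit in DESeq2 and 862 with scaling by totals alone, against 2008 in edgeR. A 0 in those settings therefore says less. Fits with 1 library left out are not counted here. Adjusted p-values ran from 0.670 for tfap2b.L to 0.997 for snai1.S. The log2 fold changes lay between -0.14 (sox8.S) and 0.29 (sox9.S), with standard errors of 0.10 to 0.19. In this edgeR fit their 95% intervals stayed within a 2-fold change in either direction for all 19 copies. They stayed within 1.5-fold for 18, the exception being sox9.S. These bounds depend on the fit, as the standard errors of all 19 copies were larger in DESeq2 and with scaling by totals alone. For foxd3.S and sox9.S they were 0.30 and 0.25 in DESeq2, and 0.26 and 0.25 with scaling by totals alone. The lowest bound in the edgeR fit was 0.694-fold, for foxd3.S, and the highest 1.55-fold, for sox9.S.

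Single pools also differed within a group. The log2 ratio of replicate 2 to replicate 1 reached 0.41 in control (snai2.S) and -0.49 in picrotoxin (sox8.S). The log2 ratio of group means reached 0.29 (sox9.S). For 13 of the 19 copies the larger of the 2 gaps within groups exceeded that between group means. The share over all genes was not computed. Single libraries vary more than means of 2, so this count does not measure the spread against the differences. The fold change was above 0 for 14 copies and below 0 for 5, with a median of 0.07, where all genes had a median of -0.0004 and 49.9% above 0. Both picrotoxin libraries lay above both control libraries for 5 copies (26.3%, against 18.2% of all genes tested) and below them for 2 (10.5%, against 18.9%). Groups that do not overlap were thus as common among the crest factors (36.8%) as over all genes (37.1%). Summed over the 19 copies, the level was 288 and 305 CPM in control replicates 1 and 2 and 309 and 318 CPM in picrotoxin replicates 1 and 2. Copies with more counts weigh more in this sum, tfap2b.L alone having means of 45.9 CPM in control and 53.2 CPM in picrotoxin libraries. How often sums over other genes separate the groups was not computed.

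**Figure D1:**
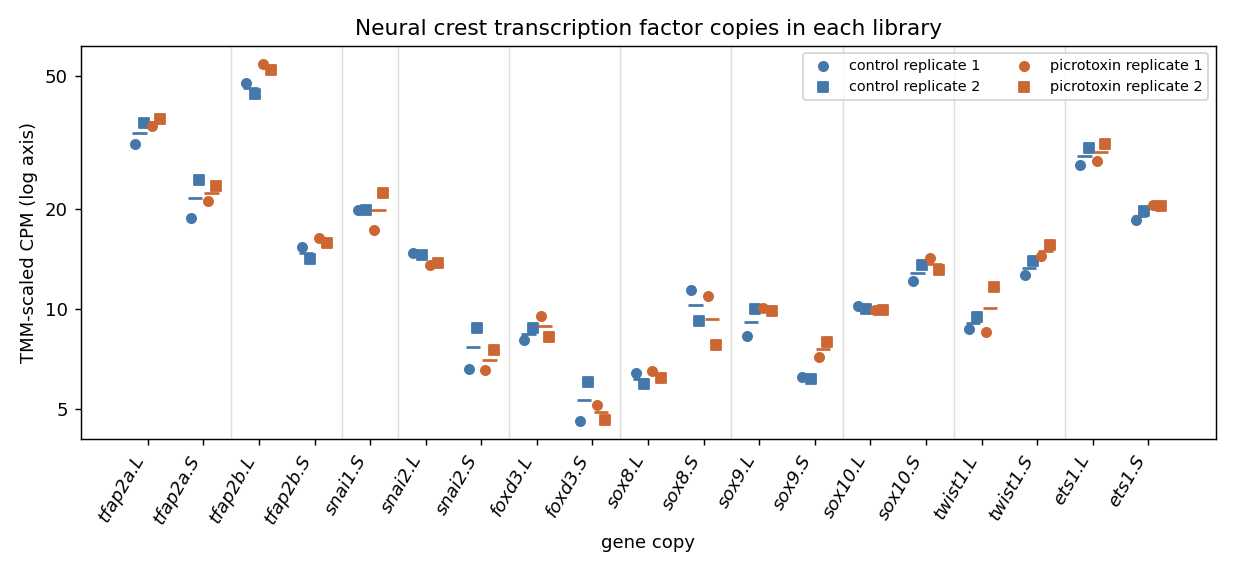
Level of each of the 19 crest factor copies in the 4 libraries, as TMM-scaled CPM on a log axis. Points are libraries (n = 2 per group) and short lines are group means; the groups overlap for 12 copies, and tfap2b.L and sox9.S are among the 5 with both picrotoxin libraries on top.

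The AP-2 factor genes tfap2a and tfap2b act at the neural plate border and again in later crest cells. The tfap2b.L copy had the smallest p of all the crest factors. It stood at 47.6 and 44.2 CPM in control replicates 1 and 2 and at 54.3 and 52.0 CPM in picrotoxin replicates 1 and 2. The groups did not overlap, and the log2 fold change was 0.21 ± 0.10 (SE), with an adjusted p of 0.670 (edgeR, Benjamini-Hochberg). Its S copy lay the same way round, at 15.3 and 14.1 CPM in control and 16.4 and 15.8 CPM in picrotoxin libraries (0.13 ± 0.12, adjusted p = 0.886). With both copies added, tfap2b was at 60.6 ± 3.29 CPM in control and 69.3 ± 1.84 CPM in picrotoxin libraries (SD, n = 2 per group), and the log2 fold change was 0.19 ± 0.10 (edgeR adjusted p = 0.662). Summed over copies, 0 of the 10 genes passed (0.19% of the 20513 genes and summed genes tested), 0 had an unadjusted p under 0.05 (7.66%), and both picrotoxin libraries lay above both control libraries for tfap2b and sox9 (18.6% of all).

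For tfap2a the groups overlapped. The tfap2a.L copy was at 31.3 and 36.1 CPM in control and 35.4 and 37.2 CPM in picrotoxin libraries (log2 fold change 0.11 ± 0.11). The tfap2a.S copy was at 18.8 and 24.4 CPM in control and 21.1 and 23.3 CPM in picrotoxin libraries (0.04 ± 0.13). Control replicate 1 was the lowest library for both copies. The log2 ratio of control replicate 2 to replicate 1 was 0.21 for tfap2a.L and 0.38 for tfap2a.S.

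The Snail genes encode zinc finger repressors that lower cell adhesion as crest cells detach, and snai2 is the classic crest marker of frog embryos. The snai2.L copy was at 14.7 and 14.5 CPM in control and 13.6 and 13.7 CPM in picrotoxin libraries. The groups did not overlap, yet the log2 fold change was only -0.10 ± 0.13 (edgeR adjusted p = 0.929). It was 0.016 when libraries were scaled by their totals alone. The snai2.S copy was at 6.59 and 8.78 CPM in control and 6.55 and 7.55 CPM in picrotoxin libraries, with overlapping groups (-0.12 ± 0.17). The single snai1.S copy varied mainly between the treated pools. It was at 19.8 CPM in both control libraries, and at 17.2 and 22.3 CPM in picrotoxin replicates 1 and 2 (0.004 ± 0.13, edgeR adjusted p = 0.997).

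Forkhead factor gene foxd3, which keeps crest cells multipotent, had the fewest counts of these genes. Its L copy was at 8.07 and 8.78 CPM in control and 9.54 and 8.25 CPM in picrotoxin libraries (log2 fold change 0.07 ± 0.15). Its S copy, with 81 to 120 counts in a library, was at 4.60 and 6.05 CPM in control and 5.17 and 4.66 CPM in picrotoxin libraries (-0.13 ± 0.19, and -0.20 ± 0.18 with chromosome medians removed). The 2 copies together came to 13.7 ± 1.52 and 13.8 ± 1.23 CPM in the control and picrotoxin groups (SD, n = 2 per group).

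The SoxE genes sox8, sox9 and sox10 encode related HMG-box factors that specify the crest, with Sox10 kept on in pigment cell precursors and glia and Sox9 in cartilage. The sox10 copies were steady. The sox10.L copy was at 10.2 and 9.99 CPM in control and 9.96 and 9.94 CPM in picrotoxin libraries (log2 fold change -0.02 ± 0.14, and 0.088 with scaling by totals alone). Its 4 libraries spanned less than those of any other copy, although with 180 to 241 counts each the 95% interval still ran from -0.31 to 0.27. The sox10.S copy was at 12.2 and 13.5 CPM in control and 14.2 and 13.1 CPM in picrotoxin libraries (0.08 ± 0.13).

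The sox9.S copy had the largest log2 fold change among the crest factors. It was at 6.25 and 6.15 CPM in control replicates 1 and 2 and at 7.19 and 7.96 CPM in picrotoxin replicates 1 and 2. Both treated pools were higher, by a log2 fold change of 0.29 ± 0.16 (95% interval -0.05 to 0.63, adjusted p = 0.729 in edgeR). The gene lies on chromosome 9_10S, whose median gene was at 0.0094 and -0.09 in control replicates 1 and 2 and at 0.05 and 0.04 in picrotoxin replicates 1 and 2 against the mean of all libraries (log2). With the chromosome medians of each library removed, sox9.S was at 0.21 ± 0.16, and the 19 copies ran from -0.23 (sox8.S) to 0.25 (tfap2b.L). The sox9.L copy was at 8.30 and 9.99 CPM in control and 10.1 and 9.85 CPM in picrotoxin libraries, with overlapping groups (0.12 ± 0.15). Added together, the sox9 copies were at 15.3 ± 1.12 CPM in control and 17.6 ± 0.44 CPM in picrotoxin libraries (log2 fold change 0.20 ± 0.12, edgeR adjusted p = 0.760).

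The groups overlapped for both sox8 copies. The sox8.S copy, also on 9_10S, was at 11.4 and 9.18 CPM in control and 10.9 and 7.79 CPM in picrotoxin libraries, replicate 2 being the lower in each group (log2 fold change -0.14 ± 0.17, and -0.23 ± 0.16 with chromosome medians removed). The sox8.L copy was at 6.42 and 5.95 CPM in control and 6.50 and 6.23 CPM in picrotoxin libraries (0.04 ± 0.17).

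The bHLH factor gene twist1 and the ETS factor gene ets1 are active in migrating crest and in mesoderm. The twist1.S copy was at 12.7 and 13.9 CPM in control and 14.4 and 15.5 CPM in picrotoxin libraries. These groups did not overlap, with a log2 fold change of 0.17 ± 0.13 (edgeR adjusted p = 0.834). The twist1.L copy was at 8.69 and 9.43 CPM in control and 8.52 and 11.6 CPM in picrotoxin libraries (0.16 ± 0.16), the 2 treated pools being the lowest and the highest. The ets1.S copy was at 18.5 and 19.6 CPM in control and 20.5 and 20.4 CPM in picrotoxin libraries, again without overlap (0.10 ± 0.12, edgeR adjusted p = 0.911). The ets1.L copy was at 27.1 and 30.4 CPM in control and 27.8 and 31.3 CPM in picrotoxin libraries (0.04 ± 0.11).

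**Figure D2:**
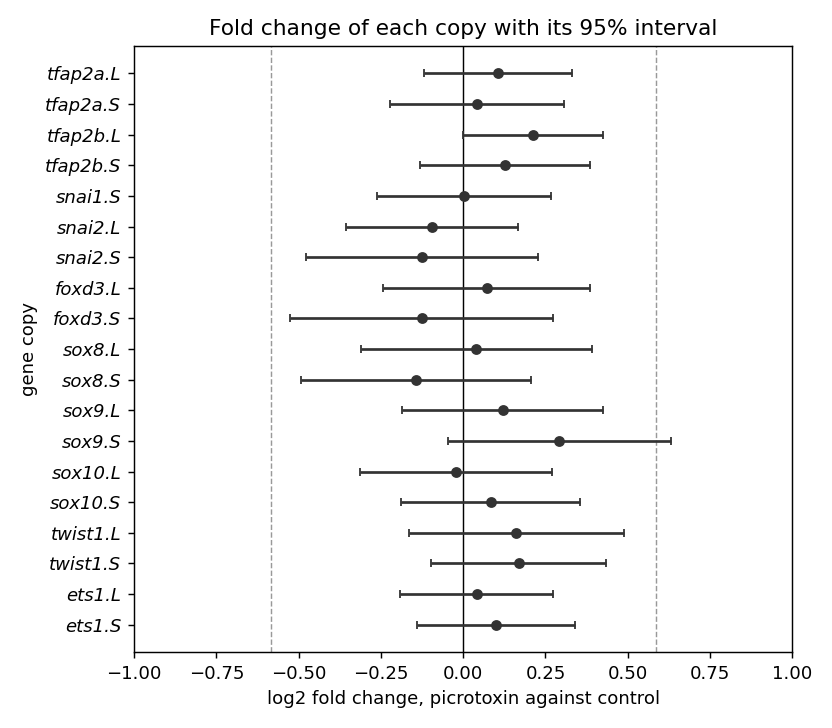
Log2 fold change of each crest factor copy, picrotoxin against control, with its 95% interval from the edgeR fit (2 libraries per group). Dashed lines mark a 1.5-fold change; all 19 intervals hold 0, and the interval of sox9.S, from -0.05 to 0.63, is the one that passes a dashed line.

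Both copies were active for each of the 9 genes with a pair, and the balance between them differed by gene. The share of a pair's counts that came from the L copy is given over the 4 libraries (mean ± SD, n = 4), without correction for transcript length. It was highest for tfap2b, at 76.3% ± 0.62, followed by snai2 at 65.8% ± 3.03, foxd3 at 62.9% ± 2.53, tfap2a at 61.6% ± 1.38, ets1 at 59.6% ± 1.43 and sox9 at 58.1% ± 2.78. The S copy gave more counts for sox10, where the L share was 43.1% ± 1.89, for twist1 at 40.3% ± 2.33 and for sox8 at 39.3% ± 3.67. The 6 L-leaning and 3 S-leaning pairs kept their side of 50% in each of the 4 libraries. Over the 7229 pairs of the genome with enough counts the median L share was 55.6%, with quartiles of 40.7% and 71.4%. The tfap2b pair lay above the upper quartile, twist1 and sox8 just below the lower one, and the other 6 pairs between them.

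The balance of the copies did not differ detectably with picrotoxin. The log2 change of the L to S ratio lay between -0.16 for sox9 and 0.19 for sox8 (standard errors 0.12 to 0.23). Of the 9 pairs, 0 passed an adjusted p of 0.05 (limma, 0.0277% of the 7229 pairs tested) and 0 had an unadjusted p under 0.05 (5.23%); the smallest adjusted p was 0.986. The L share of tfap2b was 75.7% ± 0.16 in control and 76.8% ± 0.07 in picrotoxin libraries (SD, n = 2 per group), and that of sox8 37.7% ± 2.28 and 40.9% ± 5.02.

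**Figure D3:**
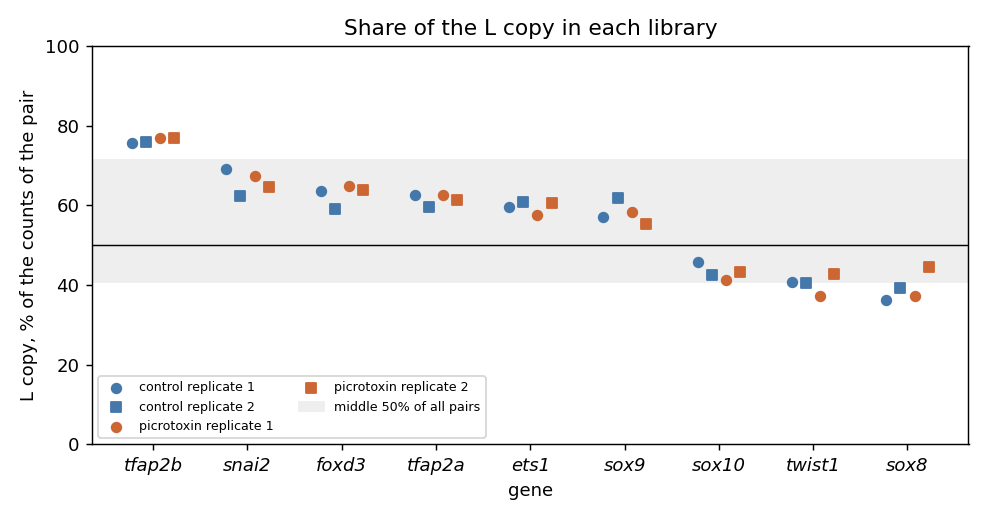
Share of the L copy in the counts of each crest factor pair, in the 4 libraries, with genes ordered by their mean share. The grey band holds the middle 50% of all 7229 pairs and the line marks 50%; tfap2b sits near 76% and sox10, twist1 and sox8 lie under the line in every library.

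How far reads were divided between near-identical sequences can be read in part from the deposited values, since a read divided between gene models leaves fractions in both. The counts of both copies of foxd3, sox9 and sox10 were whole in all 4 libraries (within 0.01). For snai2 and sox8 each copy was whole in 2 of the 4 libraries, and the sum of L and S was whole in all 4. The same held for the sum of the twist1 copies and of the tfap2a copies, neither of which was whole alone. In these 4 pairs the fractions of the copies complemented each other. For snai1.S, tfap2b and ets1 the sums were whole in 0 libraries. The L shares of foxd3, sox9 and sox10 thus show no trace of divided reads, and those of the other 6 pairs are less certain.

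The 19 copies were counted on 44 transcript models, 10 copies having 1 model each and 9 having several. A shift among the models of twist1.L was picked out after its values were seen. The fourth of its 4 models had 33.5 and 37.9 estimated counts in the control libraries and 75.0 and 129 in picrotoxin replicates 1 and 2. Its share of the twist1.L counts was 21.1% ± 1.17 in control and 46.2% ± 0.87 in picrotoxin libraries (SD, n = 2 per group). The first model, a curated RefSeq transcript, held 28.9 and 31.0 counts in control and 13.2 and 10.9 in picrotoxin libraries, a share of 17.7% ± 1.61 and 6.06% ± 3.08. Neither difference passed when all transcripts were tested. The fourth model was at a log2 fold change of 1.28 (adjusted p = 0.764 over 45189 transcripts in edgeR). Relative to the gene as a whole, with the fourth model included, its change was 1.12. The first model was at a log2 fold change of -1.47 (adjusted p = 0.922 in edgeR).

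No other model of the crest factors passed either. Of their 40 transcripts tested, 0 had an adjusted p under 0.05, as did 0 of all 45189, and 3 had an unadjusted p under 0.05 (5.4% of all). The third of the 3 was a model of tfap2a.S, at a log2 fold change of -0.99. Its share of the tfap2a.S counts was 13.1% ± 0.36 in control and 6.42% ± 0.24 in picrotoxin libraries (SD, n = 2 per group). Of the 30 that share a gene with other tested models, 0 differed from those models past an adjusted p of 0.05 (0.0313% of 28782) and 0 had an unadjusted p under 0.05 (3.42%). In ets1.L the fourth model had the smallest unadjusted p of these 30 in this test against the other models, at 0.131. For twist1.L it was 0.141 for the fourth and 0.207 for the first model. The fourth model of ets1.L held 31.6 and 53.5 counts in control and 50.2 and 174 in picrotoxin libraries, so that picrotoxin replicate 2 alone stood apart. The error of dividing reads among overlapping models is not part of these tests.

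**Figure D4:**
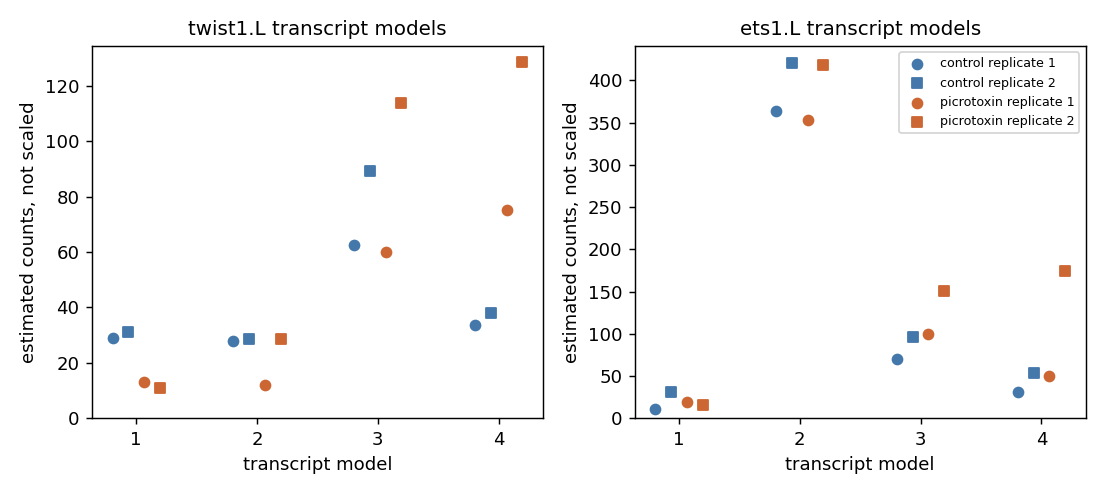
Estimated counts of the 4 transcript models of twist1.L (left) and of ets1.L (right) in each library, not scaled for library size. For twist1.L the fourth model is higher and the first lower in both picrotoxin libraries; for ets1.L the fourth model is high in picrotoxin replicate 2, at 174 counts.

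Close relatives of the factors were measured beside them. Counts in this list and the next ones are to be read against all genes tested, of which 0.176% passed and 7.51% had an unadjusted p under 0.05 in edgeR. Of 15 copies tested, 0 passed over all genes, 2 (13.3%) had an unadjusted p under 0.05, and the median log2 fold change was 0.07. Both belonged to foxd2, a forkhead gene related to foxd3. The foxd2.S copy was at 7.61 and 8.72 CPM in control and 10.6 and 12.3 CPM in picrotoxin libraries (log2 fold change 0.49 ± 0.15, edgeR adjusted p = 0.301). The foxd2.L copy was at 5.91 and 6.56 CPM in control and 6.71 and 9.65 CPM in picrotoxin libraries (0.40 ± 0.18, adjusted p = 0.609). For the AP-2 gene tfap2e, the S copy was at 0.24 ± 0.13.

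Neural plate border and early crest genes, 45 copies tested, had 0 past the threshold and a median of -0.04. An unadjusted p under 0.05 was found for 4 (8.89%, close to the 7.51% of all genes), all 4 below 0. Both picrotoxin libraries lay below both control libraries for 16 copies (35.6%, against 18.9% of all genes). They lay above them for 6, where the share over all genes was 18.2%. The Id gene id2, which encodes an inhibitor of bHLH factors, was lower in both treated pools for each copy. Its L copy was at 36.0 and 37.3 CPM in control and 29.2 and 31.2 CPM in picrotoxin libraries (log2 fold change -0.28 ± 0.11, edgeR adjusted p = 0.499), and its S copy was at -0.38 ± 0.14.

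Genes of crest migration and adhesion had 0 of 38 copies past the threshold, 7 with an unadjusted p under 0.05 (4 above and 3 below 0) and a median of -0.05. These 7 are 18.4% of the copies, against 7.51% of all genes. The N-cadherin gene cdh2.L was at a log2 fold change of -0.29 ± 0.12, the semaphorin gene sema3f.S at 0.41 ± 0.18 and the fibronectin gene fn1.S at 0.25 ± 0.11. Of the signals that induce the crest, 0 of 34 copies passed and 3 (8.82%) had an unadjusted p under 0.05, with a median of 0.02. They include bmp7.1.L at -0.23 ± 0.10, the BMP antagonist gene chrd.2.L at -0.70 ± 0.26 and wnt7b.L, below 2 CPM in every library, at 0.87 ± 0.36.

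Genes of the crest's derivatives were called in 0 cases too. Of the pigment lineage, 0 of 19 copies passed and 3 (15.8%, against 7.51% of all genes) had an unadjusted p under 0.05, with a median of 0.04. The melanin synthesis gene dct.L, which Sox10 and Mitf activate in vertebrates, was at 16.9 and 16.3 CPM in control and 27.6 and 20.3 CPM in picrotoxin libraries (log2 fold change 0.52 ± 0.14, edgeR adjusted p = 0.194). The melanosome gene pmel.L was at 0.28 ± 0.10 and the receptor gene kit.S, needed by pigment precursors in mammals, at -0.35 ± 0.15. Of the peripheral glia and neuron genes, 0 of 26 copies passed and 3 (11.5%) had an unadjusted p under 0.05, each below 0. These were neurog1.L at -0.74 ± 0.24, isl1.S at -0.72 ± 0.23 and prdm12.L at -0.73 ± 0.33, factors of sensory neurons that are also made in the central nervous system. The list's median was -0.03.

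Tissues that share factors with the crest were read from their marker genes. Of the sclerotome and mesenchyme markers, 0 of 15 copies passed and 0 had an unadjusted p under 0.05, with a median of 0.06. The 2 markers with the smallest p went opposite ways, prrx2.L at 0.29 ± 0.16 and uncx.L at -0.35 ± 0.21. Endothelial and blood markers had 0 of 22 past the threshold and a median of 0.11, with 3 (13.6%, against 7.51% of all genes) at an unadjusted p under 0.05. These 3 were below 0: the apelin receptor gene copies aplnr.L at -0.40 ± 0.11 (edgeR adjusted p = 0.248) and aplnr.S at -0.40 ± 0.13, and the blood and endothelial factor gene gata2.L at -0.48 ± 0.19. Among 22 epidermis markers the keratin gene krt12.5.S rose (0.80 ± 0.11, edgeR adjusted p = 0.000593) and 0 fell. The keratin gene krt18.1.L was at -0.40 ± 0.11 (edgeR adjusted p = 0.195), with both picrotoxin libraries below both controls, and the basal cell factor gene tp63.L at 0.31 ± 0.10 (adjusted p = 0.397). The list had 12 copies above and 10 below 0, with a median of 0.008. The summed level of the epidermis list was 6628 to 7075 CPM in control and 7012 to 7854 CPM in picrotoxin libraries, and its part in the values of tfap2a and tfap2b was not tested. Of 20 skeletal muscle markers 0 passed, with a median of 0.05, but 9 (45.0%) had an unadjusted p under 0.05, 5 above and 4 below 0. The fast troponin gene copies tnni2.L and tnni2.S were at -0.36 ± 0.11 and -0.30 ± 0.11, and the myogenic factor gene myod1.S at 0.29 ± 0.11. Of 14 notochord markers 0 passed, 3 (21.4%) had an unadjusted p under 0.05 and 12 were below 0, with a median of -0.24 and the matrix gene emilin3.S at -0.69 ± 0.18. The notochord list shares chrd and nog with the crest inducing signals, so chrd.2.L is among the 3 of both lists.

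Neural tube markers were mostly lower. Of 22 copies, the radial glia gene fabp7.L fell (log2 fold change -1.16 ± 0.16, edgeR adjusted p = 0.000532), 0 rose, 15 (68.2%, against 7.51% of all genes) had an unadjusted p under 0.05 and 21 were below 0, with a median of -0.44. Several of these markers had been listed with earlier results of these libraries known, so that their direction is a description. The list summed to 601 to 615 CPM in control and 465 to 489 CPM in picrotoxin libraries, and both treated libraries lay below both control libraries for 18 of the 22 (81.8%, against 18.9% of all genes). The difference between this list and the crest factors was not tested.

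**Figure D5:**
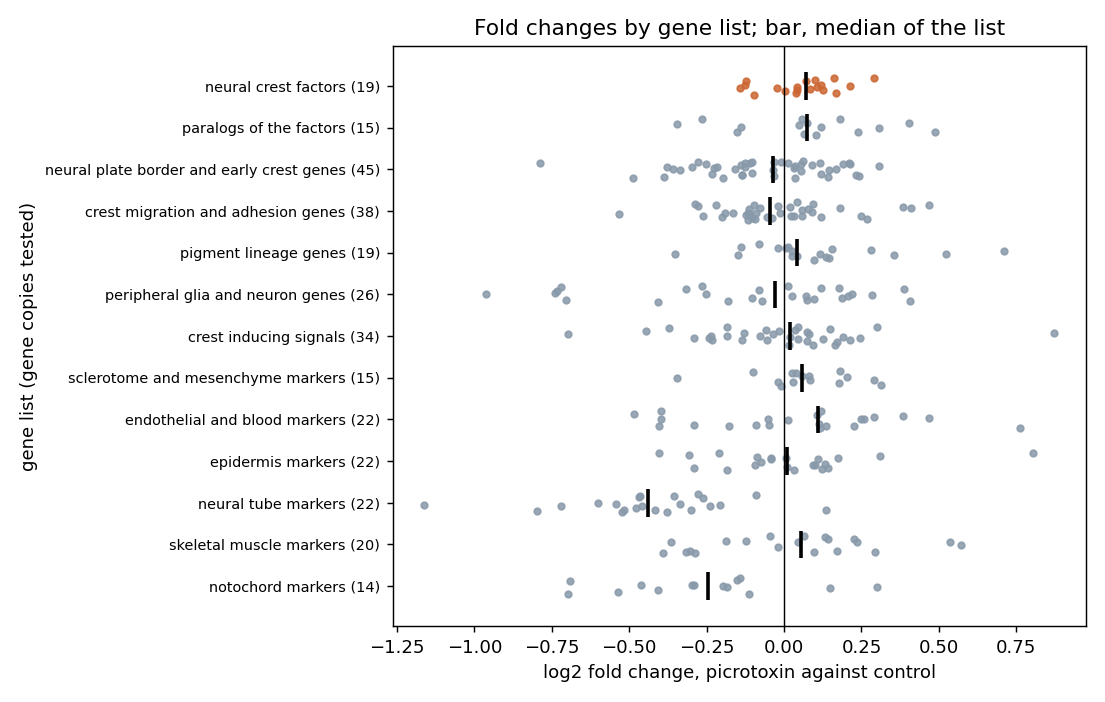
Log2 fold change, picrotoxin against control, of each gene copy tested in 13 gene lists, with the crest factors on top and the number of copies in brackets. Each point is a copy and the black bar is the median of its list, 0.07 for the crest factors and -0.44 for the neural tube markers.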

How the data were processed

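Total RNA was sequenced with a directional library kit, per the labels' protocols. The table that the authors deposited gives an estimated count for each RefSeq transcript in each library, unscaled. Which aligner, quantifier, strand setting and build they used is not given in the sources used here. All 80178 transcripts matched the RefSeq annotation of Xenopus_laevis_v10.1, which gave the gene of each transcript, symbols, chromosomes and the ribosomal RNA label. They were summed to 39176 genes and rounded, in place of the raw gene counts the design assumed. The 48 ribosomal RNA models stayed in the totals.

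Groups were compared with edgeR 4.0.16 in R 4.3.3 (filterByExpr, TMM, glmQLFit and glmQLFTest, robust; two-sided). P-values were adjusted over 26752 genes by Benjamini-Hochberg. Standard errors come from the F statistic. Ratios of L to S copies were tested with limma 3.58.1 on log2((L + 0.5)/(S + 0.5)), over pairs with a mean of at least 10 counts. DESeq2 1.42.0 was an alternative. Single transcripts were tested after their values were seen. The tests were checked on simulated counts. Each library came from 1 pool and counts as 1 sample. Counts of replicate pools differed by more than sampling noise (chi-square over its degrees of freedom, 3.56 in control and 4.51 in picrotoxin libraries).

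The members and lists were chosen with earlier results of these data known. Named genes are all 19 crest factor copies, called list genes and up to 3 genes of each list with the smallest p; dct.L and others known earlier are no independent evidence. A gene that the rule took is not reported here. List symbols were matched with their L, S and numbered copies. No sequence is shown, since none was used here.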

Additional observations from a re-analysis of the deposited data

How the results depend on the processing

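No crest factor copy and no pair passed an adjusted p of 0.05 under any alternative run, with smallest adjusted p-values of 0.449 for a copy (tfap2b.L, chromosome medians removed) and 0.874 for a pair. The number of genes called, 47, was 22 with DESeq2, 22 with library totals only, 189 with no filter on low counts, 28 with chromosome medians removed, and 15 to 158 with 1 library left out. It was 41 with the replicate number as a block. Same-numbered pools did not deviate together over all genes (correlation -0.0205). The labels state no pairing of pools, and 1 correlation from 2 pools per group cannot decide whether there was any. The 2 pairs called by their L to S ratio became 6 with a pseudocount of 2, 0 with a mean of at least 50 counts, 9 with the replicate block and 0 to 48 with 1 library left out. Scaling by totals only moved the median of all genes to 0.11, and snai2.L to 0.016 and sox10.L to 0.088. The sign of snai1.S changed with chromosome medians removed (-0.035) and with the replicate block (-0.0066). The causes were not tested.

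With 1 library left out, where the lone library of a group is assumed to vary like the others, signs changed for 10 copies. The ranges were -0.045 to 0.13 for ets1.L, -0.032 to 0.18 for foxd3.L, -0.30 to 0.091 for foxd3.S, -0.20 to 0.17 for snai1.S, -0.31 to 0.10 for snai2.S, -0.014 to 0.097 for sox8.L, -0.39 to 0.095 for sox8.S, -0.0016 to 0.26 for sox9.L, -0.13 to 0.25 for tfap2a.S and -0.087 to 0.36 for twist1.L. Ratio changes ran from -0.15 to 0.025 for ets1, -0.20 to 0.24 for snai2, -0.024 to 0.40 for sox8, -0.030 to 0.14 for tfap2a and -0.20 to 0.14 for twist1. The values of tfap2b.L (0.16 to 0.27), sox9.S (0.22 to 0.36) and twist1.S (0.11 to 0.24) stayed above 0. So did those of ets1.S, sox10.S, tfap2a.L and tfap2b.S. The values of snai2.L (-0.11 to -0.081) and sox10.L (-0.039 to -0.0027) stayed below 0.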
